A study of Mus musculus with 24 samples.

Results

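Whole hearts of severe line MHC-CELFΔ mice were compared with hearts of wild type littermates at 24 weeks of age, on 9 of the 24 arrays of the series. The arrays were chosen by sample title: 5 titles end in s24 and are transgenic mice of the severe line (MHC-CELFΔ-10), and 4 end in wm24 or ws24 and are wild type mice born to the mild and to the severe line, 2 of each, which were pooled. All were untreated FVB/N females of 24 weeks on a standard diet. Only the severe line hearts carried the transgene. The groups also differed by line of birth, since 2 of the 4 wild type mice were born to the mild line. The transgene makes a nuclear, dominant negative CELF protein from the promoter of mouse α-myosin heavy chain, active in heart muscle cells after birth, and it was kept hemizygous. The severe line is 1 transgenic line with high expression of this protein, so an effect of its insertion site cannot be told apart from that of the protein. Each heart gave total RNA for 1 array, an Illumina MouseWG-6 v2 BeadChip with probes for transcripts of the whole mouse genome. The remaining 15 arrays, 10 of 3-week hearts and 5 of mild line hearts at 24 weeks (MHC-CELFΔ-574, low expression), entered the fit and are used only to show where the severe line at 24 weeks differs.

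CELF proteins bind RNA and control which exons are kept in the transcripts of the heart muscle cell, many of them after birth. Serum response factor, SRF, switches on genes of the actin cytoskeleton, of the contractile apparatus and of the immediate early response by binding the CArG box, and HOPX and FHL2 hold it back in heart muscle. A failing heart commonly returns to fetal forms of contractile genes, makes natriuretic peptides, lays down collagen under TGF-β, and burns less fatty acid. The results below follow these roles.

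All values are log2 of the quantile normalized intensity of 1 probe per gene, for severe line mice 1 to 5 and wild type mice 1 to 4, and a difference is the severe line mean minus the wild type mean with its SE (n = 5 and 4). A gene rose or fell at an adjusted p under 0.05 in limma, and is called affected where, in addition, the fold change reached 2. Levels of different probes are not comparable, and the scale ended at 15.16, so that the brightest probes had little room to rise.

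The arrays detected 37.93% to 44.39% of the probes in severe line hearts and 36.03% to 43.36% in wild type hearts. Severe line mouse 5 stood apart from its group, with correlations of 0.951 to 0.963 with the other severe line arrays, whereas the other severe line arrays reached 0.988 to 0.993 with their nearest neighbour. It deviated from its group in the same genes as wild type mouse 2 did from the wild type mean (correlation of the deviations over genes 0.70), and these 2 arrays had the highest shares of detected probes. Severe line mouse 4 carried a lung signal: Scgb1a1, a secreted protein of airway cells, read 6.37, 6.57, 6.75, 11.89 and 6.54 in severe line mice and 6.52, 6.55, 6.70 and 6.66 in wild type mice. Counts without these arrays are given for some results only. Each of the 4 runs of 6 successive title numbers held 1 wild type array and 1 or 2 severe line arrays of 24 weeks, so every difference could also be taken within a run. The median raw intensity was 95.9 to 123.4 in the first 12 title numbers and 64.3 to 86.8 in the last 12. Of the 24-week wild type mice, those born to the mild line were in the first 12 and those born to the severe line in the last 12. Line of birth and this shift cannot be told apart in them.

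The brightest probe of Celf4, a CELF gene best known from brain, separated the groups without overlap. It read 11.73, 11.70, 11.32, 11.85 and 11.16 in the severe line mice and 6.37, 6.35, 6.40 and 6.44 in the wild type mice, where it was not detected on any array. The bound on the difference was at least 29.1-fold. The other probes of Celf4 differed by -0.03 to 0.02 on the log2 scale, and the sources used here do not say which CELF gene the transgene was made from or which part of the transcript each probe reads. Celf1 and Celf2, the CELF genes that heart muscle itself uses, differed by -0.12 ± 0.11 (adjusted p = 0.57) and 0.38 ± 0.10 (adjusted p = 0.011). Celf2 did not pass without wild type mouse 4 (adjusted p = 0.068).

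Of 12011 genes tested, 188 were affected in the severe line (1.57%), 123 of them higher (1.02%) and 65 lower (0.541%). At an adjusted p under 0.05 alone, 992 genes rose (8.26%) and 879 fell (7.32%), and with the raw intensities scaled to a common median instead 909 rose and 200 fell. Without severe line mouse 5, 1219 rose and 915 fell, and without severe line mouse 4, 913 rose and 762 fell. For 1384 genes (11.5%) the severe line mice were all above or all below every wild type mouse, and 175 of the 188 affected genes were among these. All 188 differences had the same sign within each of the 4 runs of title numbers. The 188 were chosen on these same arrays, and for the 175 without overlap the sign was fixed in advance. This is therefore a description only. Without severe line mouse 5 and wild type mouse 2 there were 135 affected genes that were higher and 70 that were lower, and 176 of these were among the 188. The split depended on the scaling: higher genes made up 65.4% of the affected genes on the deposited values and 82.3% (181 higher and 39 lower) when the raw intensities were brought to a common median with no quantile step.

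Several of the largest differences lay in genes that are not described further. Higher in the severe line were the RIKEN transcript 4833412C05Rik (2.24 ± 0.22, adjusted p = 2.5e-07), Ildr2, a membrane protein (2.22 ± 0.24, 6.4e-07), and the secreted proteins Itgbl1 (2.04 ± 0.15, 4.7e-09) and Ecrg4 (2.00 ± 0.16, 1.5e-08). Lower were Ttll1, which adds glutamates to tubulin (-2.10 ± 0.18, 3.5e-08), Ano10, an anoctamin (-1.85 ± 0.16, 3.8e-08), and Tbc1d10c, a regulator of Rab proteins (-1.61 ± 0.15, 1.3e-07). Hamp, the iron hormone hepcidin (-1.56 ± 0.43, 0.014), and Gpt, alanine aminotransferase (-1.50 ± 0.16, 4.8e-07), were also lower. Hamp did not pass on the common median (adjusted p = 0.071) or with the wild type mice of 1 litter (0.086 and 0.088). None of these 9 genes had an overlap between the groups. Other kept probes differed by -0.17 and 0.005 for Tbc1d10c, by -1.86 and 0.15 for Ttll1, and by 0.57 for Itgbl1.

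**Figure D1:**
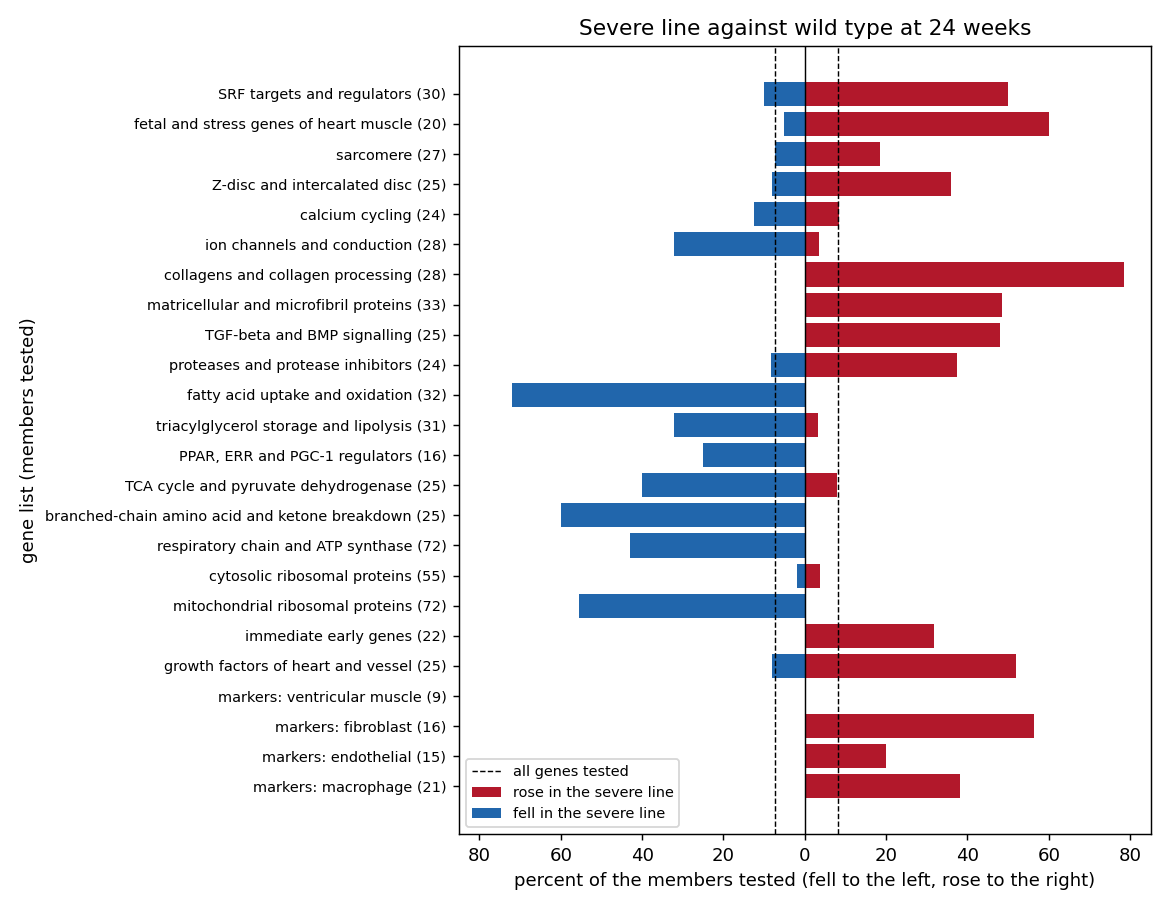
Members of 24 gene lists that rose (bars to the right) or fell (bars to the left) in severe line hearts against wild type hearts at 24 weeks, in percent of the members tested, at an adjusted p under 0.05 in limma. The dashed lines mark the 8.26% of all genes that rose and the 7.32% that fell. Bars of collagen and matricellular lists point right, and those of mitochondrial lists point left except for 2 genes of the TCA list that rose.

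The inhibitors of SRF were low and many of its targets high in the severe line. Hopx, a homeodomain protein without DNA binding of its own that restrains SRF, read 10.54, 10.21, 9.86, 10.40 and 11.07 in severe line mice against 12.11, 12.31, 12.36 and 12.23 in wild type mice. Fhl2, a LIM protein that also holds SRF back, read 10.49, 10.34, 9.48, 9.83 and 11.50 in severe line mice against 11.38, 12.52, 11.42 and 11.89 in wild type mice. The groups did not overlap for Hopx, while severe line mouse 5, the highest of its group for both genes, lay above the 2 lowest wild type mice for Fhl2. The differences were -1.84 ± 0.26 (SE, adjusted p = 1.9e-05) and -1.47 ± 0.28 (adjusted p = 0.00049), and in the mild line -2.12 and -1.36. The severe and the mild line were not told apart for either gene (adjusted p = 0.54 and 0.85). Srf itself read 10.25, 10.02, 9.94, 10.03 and 9.96 in severe line hearts and 9.75, 10.31, 9.83 and 9.90 in wild type hearts and differed by 0.09 ± 0.10 (adjusted p = 0.63).

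Among 30 SRF targets and regulators tested, 15 rose and 3 fell, with a median of 0.80, beside a median of 0.0023 over all genes. The rises were 17 without severe line mouse 5 and wild type mouse 2. Acta1, the skeletal form of α-actin that the fetal heart also makes, read 14.20, 14.27, 13.96, 14.41 and 14.34 in severe line mice and 12.40, 12.92, 12.25 and 12.56 in wild type mice. Fhl1, a LIM protein of the sarcomere that senses stretch, read 13.16, 12.86, 12.94, 12.73 and 12.93 in severe line mice and 11.49, 11.67, 11.63 and 11.52 in wild type mice. No value of a severe line mouse fell within the wild type range for either gene. Ccn2, the secreted connective tissue growth factor, read 13.75, 14.01, 14.06, 13.74 and 14.16 in severe line mice and 12.17, 12.12, 12.27 and 11.66 in wild type mice (1.89 ± 0.21, adjusted p = 1.2e-06). Myl9 and Acta2, light chain and actin of smooth muscle, were higher by 1.41 ± 0.20 and 1.49 ± 0.21 (adjusted p = 2.3e-05 and 1.9e-05), and Tpm1, a tropomyosin, by 1.02 ± 0.09 (adjusted p = 7.4e-08). Rcan1, the inhibitor of calcineurin whose own transcription reads calcineurin activity, rose by 1.27 ± 0.19 (adjusted p = 4.7e-05). Tpm2 differed by 0.49 ± 0.17 (adjusted p = 0.054), and passed without severe line mouse 5 or without wild type mouse 4. Myocd, the muscle coactivator of SRF, fell by 0.54 on the log2 scale (adjusted p = 0.02), but not without wild type mouse 1 (adjusted p = 0.067) or mouse 3 (0.050).

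**Figure D2:**
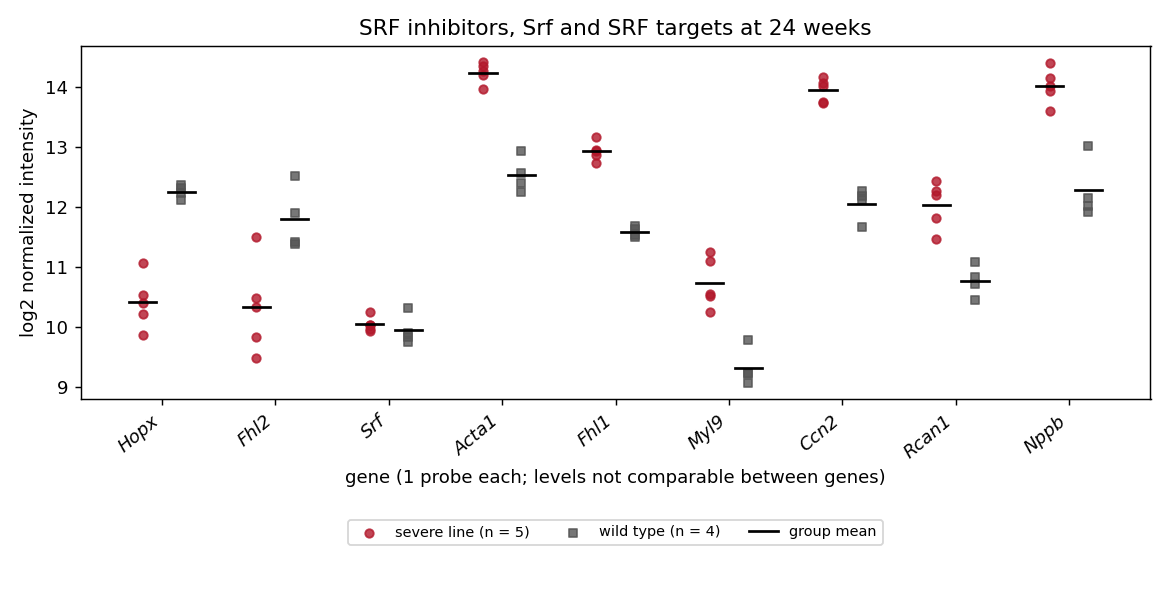
Log2 normalized intensity of SRF inhibitors and targets in each severe line mouse (red, left of each pair) and wild type mouse (grey, right) at 24 weeks, with group means as bars. Hopx and Fhl2 lie lower in the severe line, Srf overlaps, and Acta1, Fhl1, Myl9, Ccn2, Rcan1 and Nppb lie higher with no overlap.

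The promoters of 5 of these genes are shown because the CArG box that SRF binds stands in them, in genes that rose and in genes that fell. They are windows of 300 bases from RefSeq on GRCm38.p6, 250 before and 50 after the annotated start, written 5′ to 3′ on the strand of the gene with the box in capitals. Acta1 lies on the minus strand (chr8:123894726-123895025), Myl9 on the plus strand (chr2:156775214-156775513), Fhl1 on the plus strand (chrX:56779433-56779732), Hopx on the minus strand (chr5:77115074-77115373) and Fhl2 on the minus strand (chr1:43163912-43164211).
Acta1: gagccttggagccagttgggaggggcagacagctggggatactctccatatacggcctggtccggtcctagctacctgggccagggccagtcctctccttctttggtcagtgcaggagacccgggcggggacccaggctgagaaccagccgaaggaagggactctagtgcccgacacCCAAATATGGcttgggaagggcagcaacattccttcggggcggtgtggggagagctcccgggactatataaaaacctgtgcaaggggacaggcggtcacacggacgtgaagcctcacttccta
Myl9: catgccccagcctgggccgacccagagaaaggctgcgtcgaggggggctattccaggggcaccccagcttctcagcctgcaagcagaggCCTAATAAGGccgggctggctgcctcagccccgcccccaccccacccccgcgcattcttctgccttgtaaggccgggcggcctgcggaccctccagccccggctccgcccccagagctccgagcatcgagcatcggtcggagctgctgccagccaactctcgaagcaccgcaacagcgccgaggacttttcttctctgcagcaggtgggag
Fhl1: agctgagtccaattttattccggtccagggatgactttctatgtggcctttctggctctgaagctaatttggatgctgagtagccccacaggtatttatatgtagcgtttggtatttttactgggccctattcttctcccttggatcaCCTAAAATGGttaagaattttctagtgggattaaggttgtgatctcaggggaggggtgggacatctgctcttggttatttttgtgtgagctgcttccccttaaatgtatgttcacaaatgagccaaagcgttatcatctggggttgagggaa
Hopx: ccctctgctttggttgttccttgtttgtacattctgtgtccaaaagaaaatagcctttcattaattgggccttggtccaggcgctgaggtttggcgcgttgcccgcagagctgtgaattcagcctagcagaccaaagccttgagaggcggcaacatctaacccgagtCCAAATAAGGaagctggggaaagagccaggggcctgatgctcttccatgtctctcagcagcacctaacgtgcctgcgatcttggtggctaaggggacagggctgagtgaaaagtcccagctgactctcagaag
Fhl2: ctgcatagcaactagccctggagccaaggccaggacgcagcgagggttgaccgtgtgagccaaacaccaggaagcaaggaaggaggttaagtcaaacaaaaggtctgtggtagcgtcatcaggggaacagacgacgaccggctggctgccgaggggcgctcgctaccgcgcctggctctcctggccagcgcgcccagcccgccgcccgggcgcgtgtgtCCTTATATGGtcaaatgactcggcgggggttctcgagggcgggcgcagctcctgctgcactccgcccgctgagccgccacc
The box is CC, 6 bases that are A or T, and GG, and reads alike on both strands. It stood in 535 of 32851 windows (1.63%) and in the windows of 8 of the 22 SRF targets and regulators that have one. Of affected genes with a window, 5 of 86 that were higher and 3 of 47 that were lower held it. A match describes these letters only and was not tested as a binding site. Fhl1 and Hopx have a further window without the box, and both windows of Fhl2 hold it.

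Immediate early genes, which cells switch on within minutes of a signal, rose in 7 of 22 members, but 1 mouse carried much of the size. Egr1, a zinc finger factor of this class, read 11.73, 11.20, 11.43, 10.99 and 12.88 in severe line mice against 9.57, 10.16, 9.70 and 10.38 in wild type mice. Fos read 7.91, 7.50, 7.72, 7.27 and 10.35 in severe line mice against 6.86, 6.80, 7.50 and 7.32 in wild type mice. The highest value of both genes was that of severe line mouse 5. For Egr1 the groups stayed apart (1.69 ± 0.33, adjusted p = 0.00074), whereas for Fos the ranges overlapped and the difference of 1.03 ± 0.45 did not pass (adjusted p = 0.14). Egr3 and Junb rose by 1.18 ± 0.22 and 0.88 ± 0.22 (adjusted p = 0.00048 and 0.0058), while Atf3 differed by 0.35 ± 0.27 (adjusted p = 0.47). The dimmer probe of Egr3 differed by -0.06.

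Of 20 fetal and stress genes of heart muscle tested, 12 rose and 1 fell, with a median of 0.96. Nppb, the B-type natriuretic peptide, read 14.14, 13.60, 14.02, 13.92 and 14.40 in severe line mice and 11.92, 13.01, 12.15 and 12.02 in wild type mice. Myh7, the slow myosin heavy chain of the fetal ventricle, read 10.34, 9.74, 10.40, 9.76 and 10.95 in severe line mice and 8.71, 8.76, 8.62 and 8.16 in wild type mice. For both genes every severe line mouse was above every wild type mouse. The other kept probes of Myh7 differed by 1.06 and 1.37. By real-time RT-PCR, however, the study found slightly lower Myh7 in severe line than in wild type hearts at this age. Nppa, the A-type peptide, read 14.72 to 15.07 in severe line hearts and 14.71 to 15.04 in wild type hearts, near the top of the scale, and differed by 0.01 ± 0.09 (adjusted p = 0.98). Myh6, the adult α-myosin, differed by 0.02 ± 0.10 (adjusted p = 0.94) and was as bright. Differences so near the top cannot be read as the size of a change. The dimmer probe of Myh6 differed by -0.63. Mhrt, the long noncoding RNA transcribed from the myosin locus, fell by 1.38 on the log2 scale (adjusted p = 7.3e-06). It was chosen after its values were seen, and which strand its probe reads was not looked up.

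Nmrk2, a nicotinamide riboside kinase of the NAD pathway, read 11.80, 11.49, 11.07, 11.75 and 11.28 in severe line mice and 8.47, 9.50, 9.17 and 9.00 in wild type mice (2.44 ± 0.35, adjusted p = 2.8e-05). Of its other kept probes 1 rose by 2.20 and 1 differed by -0.64. Tnnt1, the slow skeletal troponin T, and Uchl1, a ubiquitin hydrolase of neurons, were higher by 2.01 ± 0.23 and 1.55 ± 0.15 (adjusted p = 1.8e-06 and 1.4e-07). Xirp2, an actin binding protein of the intercalated disc, was higher by 1.38 ± 0.19 (adjusted p = 1.3e-05). Ankrd1, a stretch-responsive titin partner, read 13.80, 13.67, 13.40, 14.45 and 14.77 in severe line mice and 13.31, 13.53, 12.96 and 13.35 in wild type mice. Mice 4 and 5 of the severe line were highest, and the difference of 0.73 ± 0.26 passed only when severe line mouse 2 or mouse 3 was left out (adjusted p = 0.056 with all arrays). Its dimmer probe differed by 1.36.

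Most of the sarcomere did not pass the test. Of 27 members 5 rose (18.5%) and 2 fell (7.41%), beside 8.26% and 7.32% of all genes, with a median of -0.03. Beside Myh7 and Tpm1, Myl1, an essential myosin light chain, was higher at 14.03 to 14.56 in severe line mice against 12.82 to 13.25 in wild type mice, and Myom3, an M-band protein, rose by 0.62 ± 0.12 (adjusted p = 0.00064). Fhod3, a formin that lays down sarcomeric actin, fell by 0.72 on the log2 scale (adjusted p = 9.2e-05). Tmod4, a cap of the pointed end of actin that is known from skeletal muscle, read 8.60, 8.49, 8.49, 8.17 and 7.81 in severe line mice and 10.25, 9.28, 10.20 and 9.76 in wild type mice. The ranges did not overlap (-1.56 ± 0.18, adjusted p = 2.4e-06), and its other probes differed by -1.23 and -1.50.

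Of 25 genes of the Z-disc and the intercalated disc 9 rose and 2 fell. Des, desmin, the intermediate filament around the Z-disc, read 14.44, 14.34, 14.54, 14.22 and 13.93 in severe line mice and 13.66, 12.99, 13.77 and 13.22 in wild type mice. Synpo2l, an actin-bundling Z-disc protein, read 9.00 to 9.86 in severe line mice and 7.56 to 8.87 in wild type mice. Both genes were separate in every mouse. Flnc, filamin C, Pdlim7 and Lmcd1, LIM proteins, rose by 0.71 ± 0.15, 0.66 ± 0.16 and 0.70 ± 0.18 (adjusted p = 0.0021, 0.0051 and 0.0071). Dsg2, the desmosomal cadherin of heart muscle, fell by 0.80 on the log2 scale (adjusted p = 0.00018). Its other kept probes differed by -0.23 to -0.04.

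Of 24 genes of calcium handling 2 rose (8.33%) and 3 fell (12.5%), beside 8.26% and 7.32% of all genes. On the arrays, neither the sarcoplasmic pump Atp2a2 (-0.14 ± 0.08, adjusted p = 0.31), nor its inhibitor Pln (-0.42 ± 0.40, adjusted p = 0.58), nor the release channel Ryr2 (-0.55 ± 0.26, adjusted p = 0.18) passed. Pln read 11.81, 11.92, 10.38, 12.13 and 12.27 in severe line mice and 11.88, 12.61, 11.52 and 12.48 in wild type mice. Severe line mouse 3 was more than 1 log2 unit below the other severe line mice, and the groups overlapped. The study, however, found both Pln and Ryr2 reduced in severe line hearts by real-time RT-PCR, and more so with age. Pvalb, the calcium buffer parvalbumin of fast muscle and interneurons, read 8.74, 8.71, 9.27, 8.51 and 8.17 in severe line mice and 6.82, 6.60, 6.98 and 6.72 in wild type mice (1.90 ± 0.15, adjusted p = 1.3e-08). Of 9 skeletal muscle markers tested, Myl1, Pvalb and Tnnt3 rose, Tnnt3 not in 5 of the 9 fits that left out 1 array (adjusted p = 0.061 to 0.11), and Casq1, the calsequestrin of skeletal muscle, differed by -0.09 ± 0.13 (adjusted p = 0.75). Hrc, the histidine-rich calcium binding protein of the reticulum, and Cacnb2, a subunit of the L-type channel, fell by 0.68 and 0.73 on the log2 scale (adjusted p = 0.00036 and 0.0073). Other kept probes of Cacnb2 differed by -0.30 to 0.03. Asph, which includes the reticulum protein junctin, fell by 0.72 (adjusted p = 0.00019) on its brightest probe, but its mean over all kept probes differed by 0.02.

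Ion channels were lower in 9 of 28 members and higher in 1, and on the common median 5 were lower and 1 higher. Kcnv2, a silent subunit that modifies voltage-gated potassium channels, read 6.71, 6.84, 6.61, 6.84 and 7.06 in severe line mice and 8.79, 8.43, 8.81 and 8.31 in wild type mice. Scn4b, an auxiliary subunit of the cardiac sodium channel, read 8.08, 8.03, 7.61, 7.97 and 8.18 in severe line mice and 9.19, 9.34, 9.52 and 9.46 in wild type mice. Neither gene had an overlap, and both fell, by 1.77 and 1.40 on the log2 scale (adjusted p = 2.2e-09 and 4.2e-07). A dimmer probe of Scn4b differed by -0.05. Kcnd2 and Kcnip2, pore and accessory subunit of the transient outward current, fell by 1.12 and 0.42 (adjusted p = 0.00039 and 0.032), Kcnip2 not in 5 of the 9 fits that left out 1 array (adjusted p = 0.055 to 0.14), while Kcnd3 differed by 0.06 ± 0.07 (adjusted p = 0.67). Abcc9 and Kcnj8, which form ATP-sensitive potassium channels together, fell by 0.83 and 0.48 (adjusted p = 2.1e-06 and 0.00024). Both are also pericyte markers, and of the 8 pericyte markers tested 3 fell and 1 rose, with a median of -0.19. The part of these cells in the difference was not tested. Gja5, connexin 40 of atria and conduction fibres, fell by 0.60 (adjusted p = 0.0008). Cacna1h, a T-type calcium channel of the fetal ventricle, was the riser, at 7.30 to 8.36 in severe line mice and 6.79 to 6.95 in wild type mice (1.00 ± 0.16, adjusted p = 0.00013).

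Collagen and the enzymes that process it rose together. Of 28 members 22 rose and none fell, the median difference was 0.80, and the median within the 4 runs of title numbers was 0.66 to 0.85. The count was 24 without severe line mouse 5 and wild type mouse 2, and 20 on the common median. Col1a1, the first chain of fibrillar collagen I, read 8.47, 9.08, 8.56, 9.23 and 9.68 in severe line mice and 6.96, 7.80, 6.90 and 7.71 in wild type mice. Col8a1, a short chain collagen of vessels and scar, read 10.44, 10.53, 9.89, 10.87 and 10.40 in severe line mice and 8.88, 9.00, 8.79 and 9.55 in wild type mice. Severe line mice lay above all wild type mice for both genes, with mouse 1 the lowest of the severe line for Col1a1 and mouse 3 for Col8a1. Loxl1 and Lox, oxidases that crosslink collagen and elastin, rose by 1.26 ± 0.16 and 0.86 ± 0.21 (adjusted p = 5.3e-06 and 0.0052). Pcolce, which speeds the trimming of procollagen, and Ctsk, the collagen-degrading cathepsin K, rose by 1.16 ± 0.18 and 1.06 ± 0.11 (adjusted p = 5.4e-05 and 2.9e-07). Col1a2 and Col3a1 rose by 0.55 ± 0.09 and 1.02 ± 0.23 (adjusted p = 0.00012 and 0.0033), with an overlap between groups for Col3a1 alone. In whole hearts, more cells of a type and more RNA per cell cannot be told apart.

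Of 33 matricellular and microfibril proteins 16 rose and none fell. Comp, cartilage oligomeric matrix protein, read 10.23, 10.48, 10.63, 11.11 and 11.18 in severe line mice and 7.96, 7.90, 7.60 and 8.07 in wild type mice. Mfap4, a microfibril protein of elastic tissue, read 8.53, 9.56, 9.63, 9.34 and 10.43 in severe line mice and 7.38, 7.26, 7.25 and 7.39 in wild type mice. Severe line mice 4 and 5 were highest for Comp, mouse 1 was lowest for Mfap4, and all were clear of the wild type range. Ccn5, the growth-arrest relative of Ccn2, was detected in all severe line mice and in no wild type mouse, with a bound of at least 2.83-fold. Postn and Tnc, matrix proteins often linked to heart scars, differed by 0.16 ± 0.07 and 0.16 ± 0.12 (adjusted p = 0.15 and 0.46) at values near the bottom of the scale. Fn1, fibronectin, read 6.60, 6.93, 7.20, 6.62 and 8.74 in severe line mice and 6.34, 7.23, 6.27 and 6.54 in wild type mice. Mouse 5 of the severe line stood above all other mice, the groups overlapped, and the difference of 0.62 ± 0.29 did not pass (adjusted p = 0.18), but did without severe line mouse 5 and wild type mouse 2 (0.45, adjusted p = 0.044).

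Of the TGF-β ligands, Tgfb3 and Tgfb2 rose and Tgfb1 did not pass. Tgfb3 read 9.01, 9.54, 9.41, 9.66 and 9.32 in severe line mice and 7.33, 7.48, 7.29 and 7.64 in wild type mice (1.95 ± 0.13, adjusted p = 5.4e-10). Tgfb2 read 8.83, 8.37, 8.06, 8.76 and 8.73 in severe line mice and 7.13, 7.67, 6.77 and 7.53 in wild type mice (1.27 ± 0.19, adjusted p = 3.4e-05). Neither gene had an overlap, whereas Tgfb1 read 8.26, 8.22, 8.22, 8.40 and 7.83 in severe line mice and 8.11, 7.61, 8.34 and 8.21 in wild type mice, with overlap (0.12 ± 0.12, adjusted p = 0.59). Of the receptors, Tgfbr1 and Tgfbr2 rose by 0.61 ± 0.16 and 0.55 ± 0.18 (adjusted p = 0.012 and 0.043), but Tgfbr1 did not pass without wild type mouse 4 (adjusted p = 0.050), nor Tgfbr2 without severe line mouse 1 (0.055) or 5 (0.099) or wild type mouse 1 (0.20) or 3 (0.16). Bmp4, a related ligand, rose by 1.00 ± 0.17 (adjusted p = 0.0002). Of the whole list 12 of 25 rose and none fell, with 6 to 12 rises when single arrays were left out. Ltbp3, which stores the latent ligand and is counted with the matrix proteins, rose by 1.01 ± 0.12 (adjusted p = 2.3e-06).

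**Figure D3:**
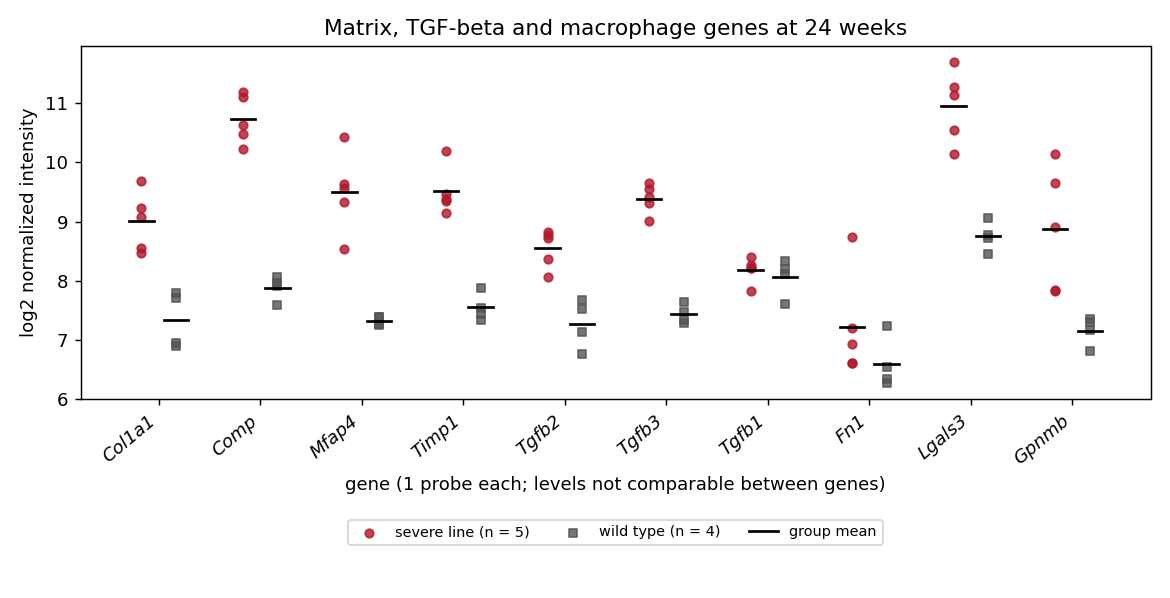
Log2 normalized intensity of matrix and TGF-β genes in each severe line mouse (red, left of each pair) and wild type mouse (grey, right) at 24 weeks, with group means as bars. Col1a1, Comp, Mfap4, Timp1, Tgfb2, Tgfb3, Lgals3 and Gpnmb lie higher in the severe line with no overlap, and Tgfb1 and Fn1 overlap.

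Among proteases and their inhibitors 9 of 24 rose and 2 fell. Timp1, an inhibitor of matrix metalloproteases, read 9.15, 9.35, 10.20, 9.47 and 9.38 in severe line mice and 7.34, 7.43, 7.55 and 7.87 in wild type mice (1.96 ± 0.22, adjusted p = 1.2e-06). The gelatinase Mmp2 and its activator Mmp14 rose by 0.87 ± 0.13 and 1.07 ± 0.21 (adjusted p = 5.0e-05 and 0.00095). Serpina3n, an acute-phase serpin, rose by 1.81 ± 0.21 (adjusted p = 1.5e-06). All severe line mice lay above all wild type mice for Timp1, Mmp2 and Serpina3n.

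Cell type markers moved unevenly. Of 16 fibroblast markers 9 rose, among them Pi16, a surface protein of resting fibroblasts, by 1.20 ± 0.16 (adjusted p = 9.3e-06), while Pdgfra, the receptor that defines these cells, differed by 0.26 ± 0.11 (adjusted p = 0.14). The mean of the fibroblast list over its members stood 0.28 to 0.86 above the wild type mean in the severe line mice, and -0.14 to 0.15 from it in the wild type mice. Of 10 markers of activated fibroblasts 6 rose and none fell, with a median of 0.87, and of 8 of cartilage and valve 5 rose and none fell. Comp is on both lists. Of 21 macrophage markers 8 rose and none fell, with 5 to 10 rises in the fits that left out 1 array. Lgals3, galectin-3 of activated macrophages, read 10.15, 11.14, 11.70, 11.28 and 10.54 in severe line mice and 8.71, 8.46, 9.06 and 8.78 in wild type mice. Gpnmb, a glycoprotein of lipid-laden macrophages, read 7.84, 8.91, 10.14, 9.66 and 7.83 in severe line mice and 7.29, 7.17, 6.81 and 7.36 in wild type mice. Mice 1 and 5 of the severe line were lowest for both genes and mouse 3 highest. Adgre1, the F4/80 antigen, rose by 0.58 ± 0.10 (adjusted p = 0.00012), and Csf1r and Cd14 differed by 0.36 ± 0.14 and 0.19 ± 0.15 (adjusted p = 0.097 and 0.49).

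Of 7 lymphocyte and 7 neutrophil and mast cell markers tested 0 passed at an adjusted p under 0.05 in limma, and 1 of each list had an unadjusted p under 0.05. Without severe line mouse 5, 2 lymphocyte markers rose. Endothelial markers rose in 3 of 15, with Kdr at 0.00 ± 0.09 (adjusted p = 1.0) and Vwf at 0.74 ± 0.15 (adjusted p = 0.0014). Smooth muscle markers rose in 3 of 10, the SRF targets Acta2, Myl9 and Tagln, while Myh11, the myosin that defines these cells, differed by 0.07 ± 0.13 (adjusted p = 0.82). Atrial markers fell in 3 of 13, among them Myl7, the atrial light chain, at 10.13, 10.67, 10.11, 10.93 and 11.59 in severe line mice and 11.52, 12.80, 11.61 and 12.20 in wild type mice. Mouse 5 of the severe line lay above wild type mouse 1 in Myl7, and mouse 2 was the highest wild type mouse. Of the 9 ventricular muscle markers 0 passed in limma, 1 of them (Ryr2) with an unadjusted p under 0.05, with Actn2 and Myl2 at 0.09 ± 0.10 and 0.19 ± 0.17 (adjusted p = 0.68 and 0.55). The part of cell numbers in the rises of matrix and macrophage genes was not tested.

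Growth signals rose more often than they fell. Of 25 growth factors, receptors and binding proteins 13 rose and 2 fell. Igf1 and its receptor Igf1r rose by 0.86 ± 0.12 and 0.86 ± 0.14 (adjusted p = 1.7e-05 and 0.00011), and Nrg1, neuregulin, by 0.79 ± 0.13 (adjusted p = 0.0001). Other probes of Igf1r differed by -0.01 to 0.21. Of 10 genes of renin, angiotensin and endothelin 3 rose (30%) and 1 fell (10%), beside 8.26% and 7.32% of all genes. Their median was -0.04, and 4 of the 10 lay above 0. Edn1, the vasoconstrictor endothelin-1, read 8.83, 8.80, 9.30, 9.32 and 8.83 in severe line mice and 8.25, 7.84, 7.74 and 8.04 in wild type mice, and Ace, the angiotensin converting enzyme, read 8.91, 9.23, 9.02, 9.30 and 9.52 in severe line mice and 8.51, 8.18, 8.21 and 8.51 in wild type mice. Agtr1a, the angiotensin receptor, moved the other way and read 7.90, 7.83, 7.67, 7.51 and 8.25 in severe line mice and 8.95, 8.51, 8.84 and 8.61 in wild type mice. None of these 3 genes had an overlap. In the natriuretic peptide system 3 of 9 genes rose (33.3%) and 1 fell (11.1%), with a median of 0.02. Corin, the protease that cuts the A-type precursor, fell by 0.75 on the log2 scale (adjusted p = 0.00029), and Npr3, the clearance receptor, rose by 0.60 ± 0.15 (adjusted p = 0.0075).

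Genes that take up and oxidize fatty acids were lower in the severe line. Of 32 tested 23 fell and none rose, with a median of -0.51 and of -0.82 to -0.43 within the 4 runs. On the common median 9 fell, with a median of -0.49. The falls were 19 without severe line mouse 4, 24 without severe line mouse 5 and 18 without wild type mouse 2. Acot1, which splits acyl-CoA in the cytosol, read 7.52, 7.70, 7.89, 7.62 and 7.33 in severe line mice and 9.04, 9.40, 10.15 and 9.35 in wild type mice. Eci1, which moves the double bond of unsaturated acyl-CoA, read 10.64, 10.78, 10.35, 10.67 and 11.07 in severe line mice and 11.79, 12.12, 11.65 and 11.88 in wild type mice. Acadvl, the first dehydrogenase for very long chains, read 12.13, 11.89, 11.63, 11.77 and 11.59 in severe line mice and 12.70, 12.68, 12.73 and 12.80 in wild type mice. The groups were apart for the 3 genes. Ech1 and Decr1, auxiliary enzymes for unsaturated chains, fell by 1.00 and 1.03 on the log2 scale (adjusted p = 1.0e-05 and 0.0001). Cpt1b, the gate into the mitochondrion, differed by -0.27 ± 0.15 (adjusted p = 0.27). Acaa2, the last thiolase of the cycle, fell by 1.22 (adjusted p = 0.012), but not without wild type mouse 2 (adjusted p = 0.059), and severe line mouse 5 overlapped with wild type mice.

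Lipid storage genes fell in 10 of 31 and rose in 1, and on the common median 5 fell. Dgat2, which makes triacylglycerol, read 9.71, 10.08, 9.78, 9.71 and 10.09 in severe line mice and 11.91, 11.23, 11.65 and 11.20 in wild type mice. Ces1d, a carboxylesterase that hydrolyses it, read 8.92, 9.28, 9.45, 9.54 and 10.23 in severe line mice and 11.69, 11.56, 11.57 and 11.62 in wild type mice, with paralogs that its probe may share. Both were clear of overlap. Fitm1 and Fitm2, which form lipid droplets, fell by 1.19 and 1.07 on the log2 scale (adjusted p = 1.6e-05 and 4.6e-07), and Plin5, a droplet coat protein of oxidative tissue, by 1.13 (adjusted p = 0.002). The lipases Pnpla2 and Lipe differed by -0.32 ± 0.14 and -0.20 ± 0.09 (adjusted p = 0.13 and 0.17).

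Of 16 nuclear regulators of this metabolism 4 fell and none rose. The count of falls was 3 to 7 in the fits that left out 1 array, 7 without severe line mouse 5, and 2 on the common median. Ppargc1a, the coactivator PGC-1α, read 9.76, 9.82, 9.67, 9.62 and 8.80 in severe line mice and 10.69, 10.75, 11.46 and 10.04 in wild type mice. Rxrg, a retinoid X receptor, read 8.02, 7.83, 7.90, 7.91 and 7.67 in severe line mice and 8.93, 8.62, 9.14 and 9.12 in wild type mice. All severe line mice were lower for both, and mouse 5 was the lowest for both. Esrra, the estrogen-related receptor α that works with PGC-1α, fell by 0.50 on the log2 scale (adjusted p = 0.0011). Ppara fell by 0.28 (adjusted p = 0.039), and did not pass in 6 of the 9 fits that left out 1 array.

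The other mitochondrial lists fell as well, by small amounts in many genes. Branched-chain amino acid and ketone genes fell in 15 of 25 (median -0.50), the TCA cycle and pyruvate dehydrogenase list in 10 of 25 (-0.43), the respiratory chain and ATP synthase in 31 of 72 (-0.38) and mitochondrial ribosomal proteins in 40 of 72 (-0.37). These counts depended on the scaling: on the common median 5, 2, 7 and 1 genes fell, with medians of -0.41, -0.36, -0.37 and -0.24. Falls in the respiratory chain list were 25 without severe line mouse 4, 34 without severe line mouse 5 and 28 without wild type mouse 2. Pdp2, the phosphatase that switches pyruvate dehydrogenase on, read 10.02, 9.84, 9.68, 10.04 and 9.13 in severe line mice and 11.32, 10.79, 11.48 and 11.24 in wild type mice. It was apart in every mouse and fell by 1.47 on the log2 scale (adjusted p = 4.7e-06). Ppm1k, the matching phosphatase of the branched-chain dehydrogenase, fell by 0.95 (adjusted p = 0.00011). Idh2 and Fh1 of the TCA cycle fell by 0.68 and 0.64 (adjusted p = 0.00022 and 8.9e-05), Ndufs3 and Ndufs4 of complex I by 0.60 and 0.62 (adjusted p = 0.00034 and 0.0018), and Pdk4, the kinase opposing Pdp2, differed by -0.39 ± 0.31 (adjusted p = 0.49).

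Of 28 genes of glucose and glycogen use 3 rose and 8 fell, and on the common median 3 rose and 3 fell. Pfkp, the platelet form of phosphofructokinase, read 8.49, 8.74, 8.87, 8.41 and 9.19 in severe line mice and 7.51, 8.07, 7.37 and 7.48 in wild type mice, whereas Pfkm, the muscle form, fell by 0.26 on the log2 scale (adjusted p = 0.024), though not in 4 of the 9 fits that left out 1 array (adjusted p = 0.061 to 0.074). Hk1, the hexokinase of the fetal heart, rose by 0.58 ± 0.13 (adjusted p = 0.003), while its other probe differed by 0.06. Slc2a4, the insulin-responsive transporter GLUT4, fell by 0.63 (adjusted p = 0.014), though not without wild type mouse 2 (adjusted p = 0.060), and Slc2a1, GLUT1, differed by 0.33 ± 0.12 (adjusted p = 0.07). Fbp2, the muscle form of fructose bisphosphatase, fell by 1.99 (adjusted p = 1.6e-06). Ckb, the brain form of creatine kinase, read 13.23, 13.21, 13.64, 13.10 and 12.52 in severe line mice and 11.75, 11.60, 11.93 and 12.11 in wild type mice. Ckm, the muscle form, read 12.61, 12.61, 11.75, 12.49 and 11.95 in severe line mice and 13.04, 12.64, 13.32 and 13.39 in wild type mice. Neither had an overlap, though severe line mice 1 and 2 came close to wild type mouse 2 in Ckm. The differences were 1.29 ± 0.16 and -0.82 ± 0.16 (adjusted p = 4.9e-06 and 0.001).

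**Figure D4:**
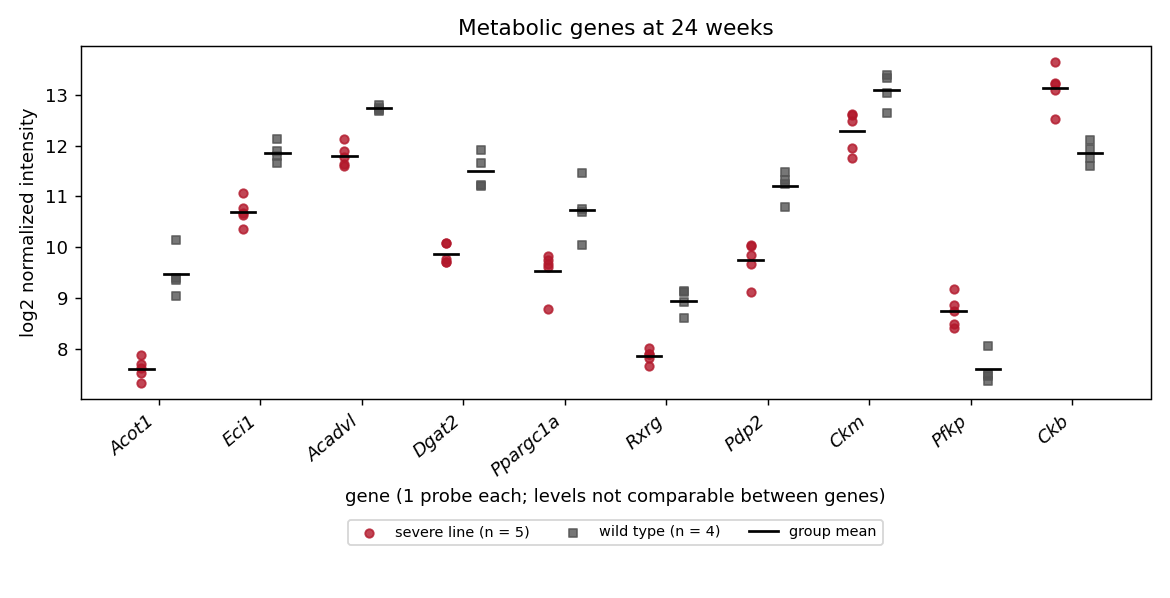
Log2 normalized intensity of metabolic genes in each severe line mouse (red, left of each pair) and wild type mouse (grey, right) at 24 weeks, with group means as bars. Acot1, Eci1, Acadvl, Dgat2, Ppargc1a, Rxrg, Pdp2 and Ckm lie lower in the severe line, and Pfkp and Ckb lie higher.

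Of 55 cytosolic ribosomal proteins 2 rose and 1 fell, a share below that of all genes. The one that fell was Rpl3l, the striated muscle form of Rpl3, at 12.41, 12.36, 12.08, 12.08 and 11.95 in severe line mice and 13.85, 13.18, 13.93 and 13.29 in wild type mice. Rpl3, the general form, read 13.69, 13.55, 13.70, 13.90 and 13.25 in severe line mice and 13.27, 13.17, 13.15 and 13.43 in wild type mice and rose by 0.36 ± 0.11 (adjusted p = 0.023), with an overlap at severe line mouse 5. The rise of Rpl3 did not pass in 4 of the 9 fits that left out 1 array.

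Stress lists moved unevenly, beside the 8.26% of all genes that rose and the 7.32% that fell. Of 22 genes of the integrated stress response and serine and folate enzymes 4 rose (18.2%), and 2 on the common median. They were led by Nupr1, a stress-induced chromatin protein, at 9.35, 9.57, 9.97, 9.96 and 9.80 in severe line mice and 8.63, 8.49, 8.62 and 8.61 in wild type mice. The groups were apart for Nupr1 (1.14 ± 0.11, adjusted p = 1.8e-07), and Atf4 differed by 0.00 ± 0.21 (adjusted p = 1.0). Of 29 heat shock and reticulum chaperones 2 fell (6.90%) and of 35 proteasome subunits 2 rose (5.71%), near or below the shares of all genes. Cdkn1a, the p21 inhibitor of the cell cycle, rose by 0.92 ± 0.22 (adjusted p = 0.0045), and Ccnd1, cyclin D1, by 0.95 ± 0.13 (adjusted p = 1.5e-05). Cytokines and chemokines rose in 6 of 31 (19.4%) and fell in 2 (6.45%). Ccl21a, a chemokine of lymphatic vessels with near-identical copies that its probe may share, rose by 1.37 ± 0.28 (adjusted p = 0.0011), with severe line mouse 5 inside the wild type range. Il15, which muscle also secretes, fell by 1.13 on the log2 scale (adjusted p = 0.00014), and its other probes differed by -0.98 and 0.01. C4a and C4b, complement genes of near-identical sequence, rose by 1.17 ± 0.19 and 1.05 ± 0.16 (adjusted p = 0.00014 and 4.2e-05).

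Among 20 regulators of splicing, Celf2, Celf4 and Rbpms rose and Rbfox1 and Qk fell. The other kept probes of Rbpms differed by -0.01 to 0.10, and Celf2 did not pass without wild type mouse 4. With the mean of all kept probes 2 members rose. Rbfox1, the heart and neuron factor that binds next to many muscle exons, read 10.57, 10.69, 10.40, 10.46 and 9.61 in severe line mice and 12.17, 11.38, 12.14 and 11.78 in wild type mice. Severe line mouse 5 was the lowest, and all 5 lay below the wild type range (-1.52 ± 0.20, adjusted p = 7.4e-06). Its dimmer probe differed by -0.31. Rbfox2 and Mbnl1 differed by 0.06 ± 0.11 and 0.36 ± 0.14 (adjusted p = 0.81 and 0.098). Dusp26, a phosphatase, rose by 1.31 ± 0.16 (adjusted p = 3.7e-06), and Dusp4 and Dusp6, phosphatases of the ERK kinases, by 0.86 ± 0.10 and 0.82 ± 0.14 (adjusted p = 2.5e-06 and 0.00027).

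In the direct comparison with mild line hearts of the same age 714 genes were higher in the severe than in the mild line (5.94%) and 640 were lower (5.33%). Of the 188 affected genes, 161 passed this test in the direction of their difference from wild type, Celf4 passed in the opposite one, and 26 did not pass. Their median size was 1.23 in the severe line and 0.353 in the mild line, both against the same 4 wild type arrays. The 188 were chosen for a large difference from wild type on these severe line arrays, so their count and size beside the mild line are a description. The 161 included Col1a1, which differed from wild type by 1.66 in the severe and 0.35 in the mild line (adjusted p of the direct comparison 0.00049), Tgfb3 by 1.95 and 0.55 (6.7e-08), Timp1 by 1.96 and 0.21 (4.9e-06), Pdp2 by -1.47 and -0.54 (0.00085), and Scn4b by -1.40 and -0.10 (1.2e-06). Of the collagen list 19 of 28 were higher in the severe than in the mild line, and of the fatty acid list 12 of 32 were lower. Of the SRF list 13 of 30 were higher in the severe than in the mild line. The 26 included Acta1, which differed from wild type by 1.70 in the severe and 1.66 in the mild line (0.91), Tnnt1 by 2.01 and 1.99 (0.97), Myh7 by 1.68 and 1.36 (0.4), Pfkp by 1.14 and 0.56 (0.073) and Acaa2 by -1.22 and -0.67 (0.29). The SEs of the direct comparison were 0.15, 0.22, 0.21, 0.21 and 0.31 for these genes. Amy2a5, an amylase, and Sun3, a nuclear envelope protein of the testis, were low in both lines, at -1.78 and -1.47 in the severe and -1.56 and -0.98 in the mild line, with adjusted p of the direct comparison 0.21 and 0.00077, so that only Sun3 of these was lower in the severe than in the mild line. Amylase genes have near-identical copies that 1 probe may share.

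**Figure D5:**
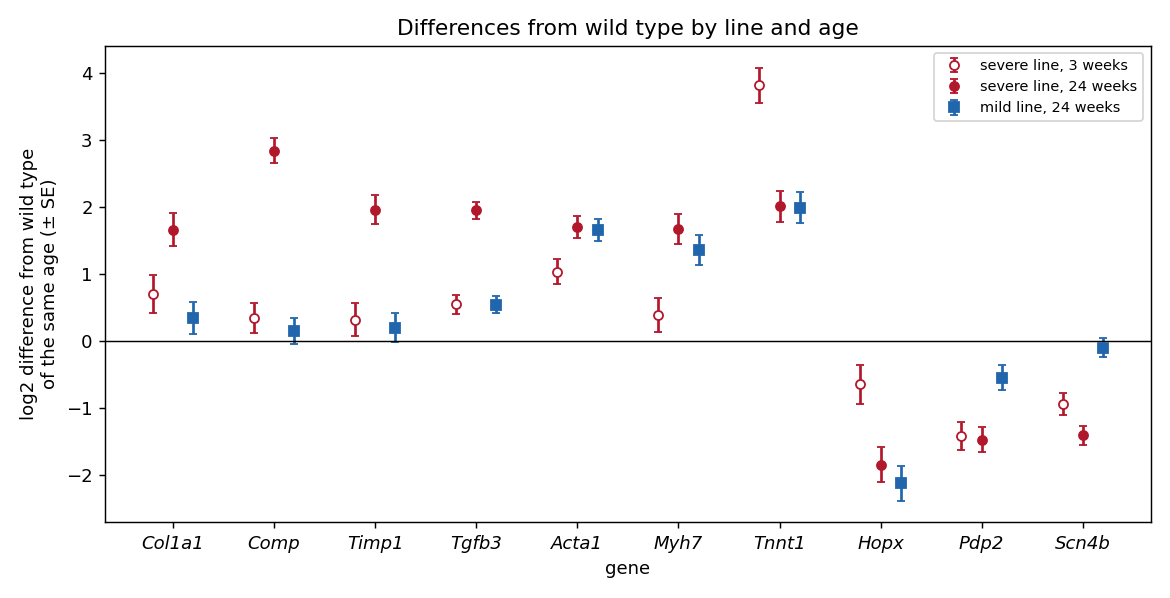
Log2 difference from wild type hearts of the same age, with SE bars, for the severe line at 3 weeks (open circle) and at 24 weeks (red circle) and the mild line at 24 weeks (blue square). Both 24-week values share the 4 wild type arrays, and the 3-week value shares no array with them. Col1a1, Comp and Timp1 stand highest in the severe line at 24 weeks, and Acta1 and Hopx were not told apart between the lines.

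The severe line at 24 weeks was set beside the severe line at 3 weeks, each against wild type hearts of its own age. The difference from wild type changed upward with age in 54 genes (0.450%) and downward in 28 (0.233%), among them 27 and 7 of the affected genes. Of the 188, 177 had the same sign at 3 weeks, 167 were larger at 24 weeks, and 41 were affected at both ages in the same direction, again a description, since the 24-week difference chose them. In the upward group, Tgfb3 differed by 1.95 at 24 weeks and 0.55 at 3 weeks (adjusted p of the change 0.0003), Timp1 by 1.96 and 0.32 (0.015), Fbln1, a fibulin, by 1.05 and -0.35 (0.00081), Loxl1 by 1.26 and 0.22 (0.041), and Adgre1 by 0.58 and -0.38 (0.00081). Vgll2, a cofactor of TEAD factors that is known from skeletal muscle, differed by 1.51 at 24 weeks and 0.10 at 3 weeks (0.00071). The downward group held Tnnt1 at 2.01 and 3.82 (0.011) and Ppp1r1a, which restrains protein phosphatase 1, at 0.70 and 1.77 (0.003), which both stayed above wild type. Amy2a5 and Cyp2b10, a cytochrome P450, were near wild type at 3 weeks (-0.25 and -0.11) and low at 24 weeks (-1.78 and -1.54, adjusted p of the change 3.3e-05 and 3.3e-05). The count of 82 genes was 181 without severe line mouse 5 and 24 on the common median.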

How the data were processed

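Total RNA of 24 whole mouse hearts was hybridized to 1 array each, and 9 of these arrays form the comparison described here. The authors deposited bead-summary intensities per probe, a detection p-value that sets each probe beside the negative controls on the same array, and log2 values after quantile normalization between arrays. The software of these steps and the test used on the arrays were not given in the labels or the methods. The log2 values were used as deposited, and 48 other columns of sample values were not used.

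Of 45281 probes, 22663 had a detection p-value under 0.05 on at least 3 of the 24 arrays, and 18907 of them had 1 gene symbol in the platform annotation. The brightest kept probe stood for each of 12011 genes. Dimmer probes of a gene often differed by less and are given for some genes only. With the mean of all kept probes 87 affected genes were higher and 46 lower. All 24 arrays entered 1 linear model with a mean per line or wild type and age (limma 3.58.1, R 4.3.3, empirical Bayes, 18 residual degrees of freedom), which also gave the comparison with the mild line and the change with age. P-values were adjusted over all genes by Benjamini-Hochberg, are two-sided, and rest on the spread between mice within the groups of all 24 arrays. For a gene not detected on any wild type array a lower bound of the fold change was taken, for which the wild type level was set on each array to the lowest detected signal, or to the probe's own value where higher.

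The members and lists were chosen with earlier results of these data known. Named are the 15 largest rises and 15 largest falls without overlap and, from the genes of main interest in the lists and the up to 6 members per list with the largest differences, those needed to describe a list, picked with their values known. Casq1, Flnc, Kcnd3, Kcnip2, Lmcd1, Ltbp3, Mbnl1, Mhrt, Pdlim7, Pfkm, Rbfox2 and Scgb1a1 were chosen after their values were seen.

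Alternatives were fits on the 9 arrays alone, with the wild type mice of 1 litter, with normexp (offset 50), with a common median in place of quantiles, with no or a stricter detection filter (9 arrays), with the mean of all kept probes, with array weights, with a robust trend, with blocks, within 12 title numbers, and without single arrays. The fit without severe line mouse 5 and wild type mouse 2 was added after seeing the data. The model was tested on simulated data. The number of arrays limits the precision.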

Additional observations from a re-analysis of the deposited data

Results flagged for a closer look

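Of 344 sets of values, those of 172 named genes in each 24-week group, 28 (8.14%) held a mouse far from the rest of its group by Dixon's test at the 95% level, where chance gives about 1 in 20. Severe line mouse 5 was that mouse in 14 of them, on the log2 scale. It was highest for Atf3 (8.87), Fn1 (8.743), Fos (10.348), Gja5 (8.269), Mbnl1 (11.911), Npr3 (8.906), Synpo2l (9.856), Tgfbr2 (10.907) and Tnc (6.994), and lowest for Ccl21a (9.947), Kcnd2 (7.396), Ppargc1a (8.796), Rbfox1 (9.608) and Rbfox2 (8.111). Severe line mouse 1 was highest for Srf (10.251). Severe line mouse 2 was highest for Myl1 (14.564). Severe line mouse 3 was highest for Bmp4 (9.982) and lowest for Pln (10.375) and Ryr2 (10.681). Severe line mouse 4 was highest for Scgb1a1 (11.895) and lowest for Il15 (8.944). Wild type mouse 1 was lowest for C4b (8.117). Wild type mouse 2 was lowest for Egr3 (7.151), Nupr1 (8.494), Tnnt1 (9.125) and Ttll1 (8.985). Wild type mouse 4 was highest for Mmp14 (9.614) and lowest for Igf1r (7.359). Scgb1a1 is the lung signal described above.

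For 23 of the named genes the difference from wild type in the severe line changed between 3 and 24 weeks at an adjusted p under 0.05 in limma. The change, the 24-week minus the 3-week difference on the log2 scale, was upward for Comp (2.4998), Serpina3n (2.4558), Lgals3 (2.0085), Ecrg4 (1.651), Pvalb (1.6471), Timp1 (1.6389), C4a (1.6043), Ccn5 (1.5929), C4b (1.5562), Tgfb3 (1.4042), Vgll2 (1.4016), Fbln1 (1.395), Itgbl1 (1.2952), Loxl1 (1.0387), Adgre1 (0.9588) and Tpm1 (0.7645). It was downward for Tnnt1 (-1.8072), Amy2a5 (-1.528), Cyp2b10 (-1.4366), Ppp1r1a (-1.0609), Kcnv2 (-0.9422), Sun3 (-0.8094) and Asph (-0.7916). C4a and C4b are near-identical in sequence, and 1 probe may read both.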

How the results depend on the processing

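All 188 affected genes kept the sign of their difference under every alternative run. The alternatives reuse all or some of the arrays that chose the 188, so this is a description only. Of affected genes, 39 were lower on the common median in place of quantile normalization, against 65 on the deposited values, and the cause was not tested. Genes of adjusted p under 0.05, 1871 on the deposited values, numbered 1067 when only the 9 arrays entered, 1068 with wild type mice of the mild line only, 1109 on the common median, and 951 and 484 within the first and the last 12 title numbers, where fewer arrays entered. Genes whose difference changed with age, 82 on the deposited values, numbered 39 with wild type mice of the severe line only, 24 on the common median, 213 with array weights, 42 and 1 within the first and the last 12 title numbers, and 150 without severe line mouse 5 and wild type mouse 2. Genes that differed between the severe and the mild line, 1354 on the deposited values, numbered 852 on the common median, 2159 with array weights, and 194 and 253 within the first and the last 12 title numbers. When single arrays were left out, affected genes ranged over 107 to 132 higher and 53 to 79 lower, genes of adjusted p under 0.05 over 1474 to 2134, changes with age over 60 to 181, the highest without severe line mouse 5, and differences from the mild line over 1099 to 1427. Asph differed by 0.02234 with the mean of all kept probes (adjusted p = 0.8872), opposite to its brightest probe. The fit on the 9 arrays gives no change with age and no difference from the mild line.

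Deviations of severe line and wild type mice of the same replicate number in the labels correlated over genes at 0.058 and 0.179 for number 1. For number 2 they correlated at -0.316 and -0.084. Mice of unlike number correlated at -0.476 to 0.70. These deviations are from means of few arrays, so they cannot show whether the numbers pair the mice. With the number as a replicate block, 113 genes were higher and 55 lower, and 1706 had an adjusted p under 0.05. The block gave 123 changes with age and 1885 differences from the mild line.

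Signals near the top of the scale, such as Nppa and Myh6, and probes near background, such as Postn and Tnc, limit the precision of the differences in those genes. Each line is 1 transgenic line, and whole hearts mix cell types.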
